A study of Mus musculus with 18 samples.

Results

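The transcripts described here are 8 genes of mouse kidney cortex: Kap, Inmt, Pzp, Azgp1, Akr1c21, Hrg, Spp2 and Hsd3b2. They were picked by name from the 24062 genes of the RPKM table (read density per transcript length and library depth) because their levels were much lower with a nephrotoxin or in mice without tubular Klf15. The rule has no numeric threshold. All 8 were among the 13624 genes that were tested, a gene needing 1 RPKM or more in 3 or more of 18 libraries. Hrg reached 1 RPKM in the DMSO libraries alone and Pzp in those and 1 AA library, so both passed this filter only through the groups where they are high. The levels against vehicle and between genotypes chose the members, so these contrasts are given as a description, with no test.

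The study asked how deleting Klf15, which encodes a zinc-finger transcription factor, in proximal tubule cells bears on injury by aristolochic acid I (AAI), a plant toxin taken up by that segment. All mice were C57Bl/6 and all carried floxed Klf15. Klf15fl/fl mice (fl/fl) served as the comparison for Klf15PTKO mice (PTKO). Mice of each genotype received DMSO, AAI for 2 weeks (AA 2wk), or AAI for 2 weeks and then 2 weeks of remodeling (AA 4wk), with 3 libraries in each of the 6 groups. No source used here gives the Cre line, its promoter or the exons removed, and the labels name no Cre-bearing group with intact Klf15, so an effect of genotype and an effect of Cre cannot be told apart. The labels give neither sex nor age. They give no week for the DMSO libraries, which serve both courses within a genotype. They also do not say that the 3 replicates are separate mice, so p-values measure only the spread between these samples.

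The proximal tubule reabsorbs most of the filtrate and also makes and converts many small molecules, steroids among them. In the mouse kidney a large set of its genes is expressed at higher levels in males and depends on androgens, and Kap, the kidney androgen-regulated protein, is the classic example. Other members encode proteins best known from blood plasma (Pzp, Azgp1, Hrg, Spp2), and the remaining ones encode enzymes (Inmt, Akr1c21, Hsd3b2).

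The recovered depth, which leaves out the abundant gene Gpx3, was 10.7 to 21.2 M reads per library. The deleted gene, Klf15, averaged 59.9 ± 6.33 RPKM (SD, n = 3) in fl/fl DMSO and 31.0 ± 2.20 in PTKO DMSO, and 15.0 and 9.15 RPKM in the AA 4wk groups of fl/fl and PTKO. Whether its counted reads lie in the removed exons is not given. Xist did not exceed 0.0158 RPKM and Ddx3y lay between 9.82 and 15.8 RPKM over all 18 libraries. All 6 tubule injury markers rose with AAI in every toxin group (limma, adjusted p under 0.05). Relative to the fl/fl DMSO mean, the average of these markers on the log2 scale was 4.37 and 4.01 in the AA 2wk libraries numbered 3 of fl/fl and PTKO, against 5.04 to 5.63 in the other AA 2wk libraries. PTKO DMSO library 3 stood at 1.61, against -0.20 to 0.19 in the other DMSO libraries. PTKO AA 4wk library 2 held fat cell transcripts, with Cfd at 38.9 RPKM and Adipoq at 4.50 RPKM.

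The 8 genes lie on 6 chromosomes (GRCm38, GENCODE), all protein-coding. Kap (chr6:133849851-133853762, minus strand), Inmt (chr6:55170626-55175043, minus) and Pzp (chr6:128483567-128526720, minus) share chromosome 6 but are not neighbours. Azgp1 is at chr5:137981520-137990233 (plus), Akr1c21 at chr13:4574075-4586541 (plus), Hrg at chr16:22951072-22961656 (plus), Spp2 at chr1:88406961-88426438 (plus) and Hsd3b2 at chr3:98709255-98724543 (minus). All 8 matched a RefSeq promoter entry on GRCm38.p6, which runs from 250 bases before the start used by that entry to 50 bases after it. For Kap, Inmt and Spp2 this start lies a short way inside the upstream end of the GENCODE span given above. Distances below are from the start of the entry. The windows of Kap, Inmt, Pzp and Akr1c21 are printed because they hold the motifs described after them, and they include the 3 members most abundant in vehicle and a member reduced to a trace. Capitals mark matches on either strand to a TATA box, an HNF1 half-site, a CACCC box or a GC box, whose letters are given after the sequences.
Kap, chr6:133853618-133853917, minus strand: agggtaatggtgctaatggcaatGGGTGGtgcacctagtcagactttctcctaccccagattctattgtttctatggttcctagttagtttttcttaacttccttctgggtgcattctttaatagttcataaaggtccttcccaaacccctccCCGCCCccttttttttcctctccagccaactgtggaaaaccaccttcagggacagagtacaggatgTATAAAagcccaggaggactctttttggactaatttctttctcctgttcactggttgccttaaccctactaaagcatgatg
Inmt, chr6:55174941-55175240, minus strand: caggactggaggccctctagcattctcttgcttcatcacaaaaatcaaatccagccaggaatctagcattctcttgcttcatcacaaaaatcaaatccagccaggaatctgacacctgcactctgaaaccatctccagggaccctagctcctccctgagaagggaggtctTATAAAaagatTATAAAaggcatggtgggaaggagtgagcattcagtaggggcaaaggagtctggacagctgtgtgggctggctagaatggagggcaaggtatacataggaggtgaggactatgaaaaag
Pzp, chr6:128526671-128526970, minus strand: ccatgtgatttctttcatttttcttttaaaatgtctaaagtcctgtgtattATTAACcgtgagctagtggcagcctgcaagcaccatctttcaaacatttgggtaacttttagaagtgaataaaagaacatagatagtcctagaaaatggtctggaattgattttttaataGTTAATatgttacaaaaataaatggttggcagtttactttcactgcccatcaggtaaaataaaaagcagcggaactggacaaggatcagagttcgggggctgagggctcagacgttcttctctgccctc
Akr1c21, chr13:4573825-4574124, plus strand: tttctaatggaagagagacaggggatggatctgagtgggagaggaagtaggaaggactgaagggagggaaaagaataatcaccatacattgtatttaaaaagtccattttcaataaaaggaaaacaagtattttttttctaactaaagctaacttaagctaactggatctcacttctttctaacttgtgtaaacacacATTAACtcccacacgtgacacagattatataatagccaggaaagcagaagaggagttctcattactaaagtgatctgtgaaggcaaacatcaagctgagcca

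The Kap window held a TATA box beginning 31 bases before the start of its promoter entry, and a GC box and a CACCC box further upstream. The TATA box searched, TATAAA, was found in 3 of the 8 windows (Kap, Inmt and Hrg) and in 13.6% of all 32851 promoters of the table. The Hrg match covered bases 1 to 6 from the start rather than lying upstream of it. The HNF1 half-site, GTTAAT, was found in Pzp, at both of its printed sites, and in Akr1c21, against 7.10% of all promoters. The CACCC box, spelled CCACCC, was found in 1 window, that of Kap, against 31.5% of all promoters. The GC box, spelled CCGCCC, was likewise found in 1 window, again that of Kap, against 35.7%. A 9-base HNF4 site (CAAAGTCCA) was in none of the 8 windows and in 0.475% of all promoters. The capitalised matches do not overlap one another, and a match is a run of letters, not a shown binding site.

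Kap was the most abundant transcript of vehicle-treated cortex and was reduced to a minor one after AAI. The DMSO libraries held 43574, 39229.9 and 50705 RPKM in fl/fl and 50475, 44612 and 49783 RPKM in PTKO. After AA 2wk the libraries held 5127, 1343 and 1951 RPKM in fl/fl and 1529, 618 and 409.8 RPKM in PTKO. After AA 4wk they held 763, 465 and 1649 RPKM in fl/fl and 1512, 594 and 1148 RPKM in PTKO. Every AA library lay far below every DMSO library, the 2 genotypes overlapped in vehicle, and all neighbours in the order of the 4 AA groups overlapped. The AA 2wk means were 6.31% and 1.77% of the DMSO means in fl/fl and PTKO, and the AA 4wk means were 2.15% and 2.25%. In bulk cortex, fewer proximal tubule cells and less Kap RNA per cell cannot be told apart, and this holds for all 8 genes.

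Kap also made up a large part of the vehicle libraries. It made up 8.62 to 10.8% of the summed RPKM in fl/fl DMSO and 9.63 to 10.8% in PTKO DMSO, ahead of every other gene in all 6 libraries. After AAI its share was 0.0922 to 1.21%, and its rank lay between 3 and 112. Counted as recovered reads, which do not weigh short transcripts up, it was 2.48 to 3.19% of the DMSO libraries. These reads leave out Gpx3, the next most abundant gene by RPKM there. The other 7 members together were 0.624 to 0.740% of the summed RPKM in DMSO and 0.0475 to 0.270% after AAI. Dividing each library by the summed RPKM of all genes but the members kept every call on the members described below.

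**Figure D1:**
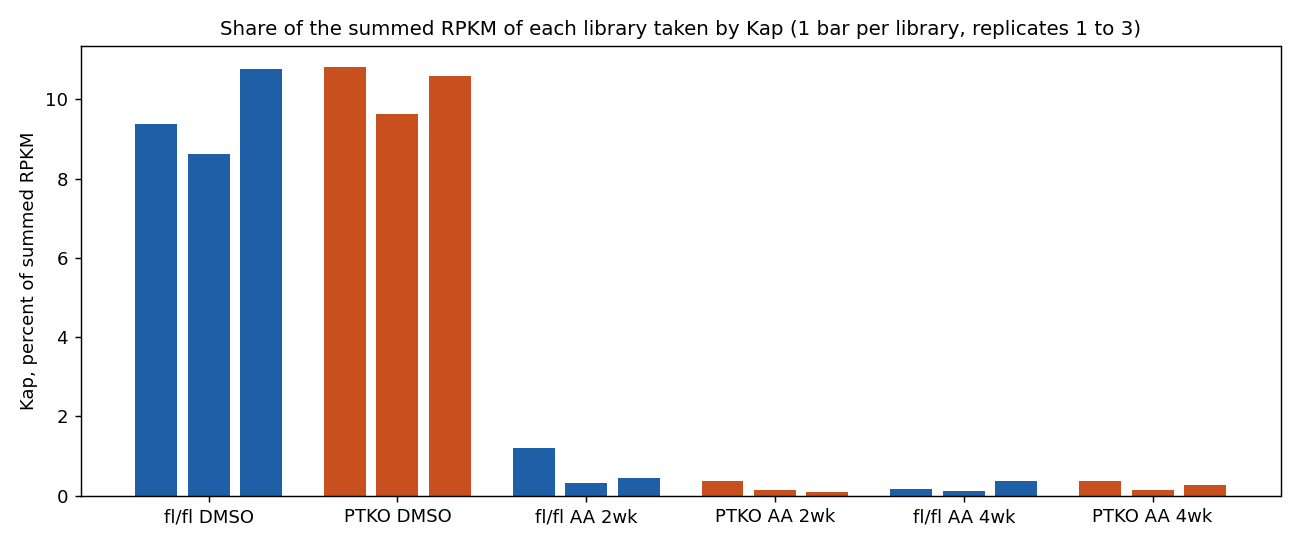
Percent of the summed RPKM of each library taken by Kap, with 1 bar per library in the 6 groups. The 6 DMSO libraries lie between 8.62 and 10.8%, and the highest AA library, fl/fl AA 2wk library 1, reaches 1.21%.

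Inmt, an N-methyltransferase of indole amines such as tryptamine, was lower to a like degree in all 4 AA groups. Its DMSO libraries held 1634, 1384 and 1415 RPKM in fl/fl and 1271, 1305 and 1287 RPKM in PTKO. At AA 2wk it stood at 28.7, 25.2 and 98.3 RPKM in fl/fl and 32.8, 11.3 and 55.9 RPKM in PTKO. At AA 4wk it stood at 60.4, 45.5 and 73.0 RPKM in fl/fl and 36.6, 27.0 and 35.6 RPKM in PTKO. The AA libraries were well below DMSO in both genotypes, and library 3 was the highest of its group at AA 2wk in both. The AA group means were 2.57 to 4.04% of the matching DMSO mean. All PTKO libraries were below all fl/fl libraries in DMSO (87.2% of the fl/fl mean) and at AA 4wk (55.4%), but not at AA 2wk.

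Akr1c21, an aldo-keto reductase that acts on hydroxysteroids, and Hsd3b2, a 3-beta-hydroxysteroid dehydrogenase, kept more of their level at AA 2wk and stood lower at AA 4wk. Akr1c21 was at 1289, 1101 and 1236 RPKM in fl/fl DMSO and at 1366, 1438 and 1309 RPKM in PTKO DMSO. It was at 415, 366 and 757 RPKM in fl/fl and 344, 327 and 573 RPKM in PTKO at AA 2wk. At AA 4wk it was at 296, 219.8 and 368 RPKM in fl/fl and 231, 120.3 and 212 RPKM in PTKO. All AA libraries were below all DMSO libraries and the PTKO DMSO libraries lay above those of fl/fl, with AA means of 42.4% and 30.3% of DMSO at AA 2wk and 24.4% and 13.7% at AA 4wk in fl/fl and PTKO. The ranges of neighbouring AA groups overlapped, and those of the 2 AA groups of PTKO did not.

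Hsd3b2 was at 91.9, 81.8 and 108 RPKM in fl/fl DMSO and at 96.7, 100.2 and 84.5 RPKM in PTKO DMSO. At AA 2wk the 2 genotypes were much alike, with 16.1, 17.1 and 20.9 RPKM in fl/fl and 16.6, 17.5 and 21.6 RPKM in PTKO. At AA 4wk the libraries held 8.95, 17.6 and 14.9 RPKM in fl/fl and 9.08, 3.25 and 6.32 RPKM in PTKO. The AA 2wk means were 19.2% and 19.8% of DMSO, and the AA 4wk means were 14.7% in fl/fl and 6.63% in PTKO. The highest PTKO AA 4wk library only just overlapped the lowest of fl/fl AA 4wk. Akr1c and Hsd3b genes have close relatives, among them Hsd3b3, and how reads were split between such copies is not given, so their levels carry that uncertainty.

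Of the plasma-type proteins, Pzp, a protease inhibitor of the alpha-2-macroglobulin family, was reduced to a trace. Its DMSO libraries held 33.5, 24.1 and 43.3 RPKM in fl/fl and 27.6, 28.2 and 25.6 RPKM in PTKO. The AA 2wk libraries held 1.68, 0.273 and 0.755 RPKM in fl/fl and 0.232, 0.0892 and 0.189 RPKM in PTKO. The AA 4wk libraries held 0.266, 0.0845 and 0.513 RPKM in fl/fl and 0.426, 0.211 and 0.253 RPKM in PTKO. The DMSO and AA ranges were far apart, and the PTKO libraries lay wholly below fl/fl at AA 2wk, where fl/fl library 2 was close to the highest PTKO library. The AA means were 0.628 to 2.69% of the DMSO means, resting on 37 to 201 recovered reads per AA group.

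Azgp1, the zinc-alpha-2-glycoprotein, a secreted protein with an MHC class I-like fold known for lipid mobilisation, was lower in PTKO under every treatment and lower again after AAI. In DMSO it was at 125, 107 and 147 RPKM in fl/fl and at 46.4, 44.0 and 34.9 RPKM in PTKO. At AA 2wk it was at 5.63, 4.64 and 11.1 RPKM in fl/fl and at 0.580, 1.96 and 1.78 RPKM in PTKO. At AA 4wk it was at 1.76, 1.25 and 2.87 RPKM in fl/fl and at 0.953, 0.231 and 0.277 RPKM in PTKO. Every PTKO library was below every fl/fl library of the same treatment, with means of 33.1%, 20.2% and 24.9% of fl/fl in DMSO, AA 2wk and AA 4wk. The toxin groups were in turn 1.17 to 5.63% of their DMSO means. The fitted genotype difference in DMSO was -1.57 ± 0.30 on the log2(RPKM + 1) scale (SE).

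Hrg, the histidine-rich glycoprotein, a plasma protein that binds heparin and carries cystatin-like domains, was the least abundant member. Its DMSO libraries held 7.94, 5.49 and 9.34 RPKM in fl/fl and 3.76, 3.61 and 3.34 RPKM in PTKO, from 77 to 257 reads each. The AA 2wk libraries held 12, 9 and 7 reads in fl/fl and 1, 1 and 4 reads in PTKO. The AA 4wk libraries held 3, 3 and 13 reads in fl/fl, and 1, 0 and 0 reads in PTKO. A count of 0 allows up to 3 reads, or 0.131 and 0.157 RPKM in these 2 libraries, counting error only. No fold is given for PTKO AA 4wk, whose libraries hold 1 read in all. The PTKO DMSO mean was 47.0% of the fl/fl DMSO mean, with no overlap.

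Spp2, a secreted phosphoprotein with a cystatin-like domain found in bone matrix and plasma, differed from the other members. It was at 254, 194 and 209 RPKM in fl/fl DMSO and at 193, 201 and 188 RPKM in PTKO DMSO. At AA 2wk it was at 85.8, 117 and 284 RPKM in fl/fl and at 129.7, 133 and 275 RPKM in PTKO. At AA 4wk it was at 146, 181 and 173 RPKM in fl/fl and at 79.9, 44.7 and 72.0 RPKM in PTKO. Only the PTKO AA 4wk group stood apart from all other groups, at 33.7% of PTKO DMSO and 39.3% of fl/fl AA 4wk. The AA 2wk libraries numbered 3 exceeded every DMSO library in both genotypes, and the AA 2wk ranges therefore covered the DMSO ranges. The AA 2wk means were 74.0% and 92.3% of DMSO in fl/fl and PTKO, and the fl/fl AA 4wk mean was 76.2%.

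**Figure D2:**
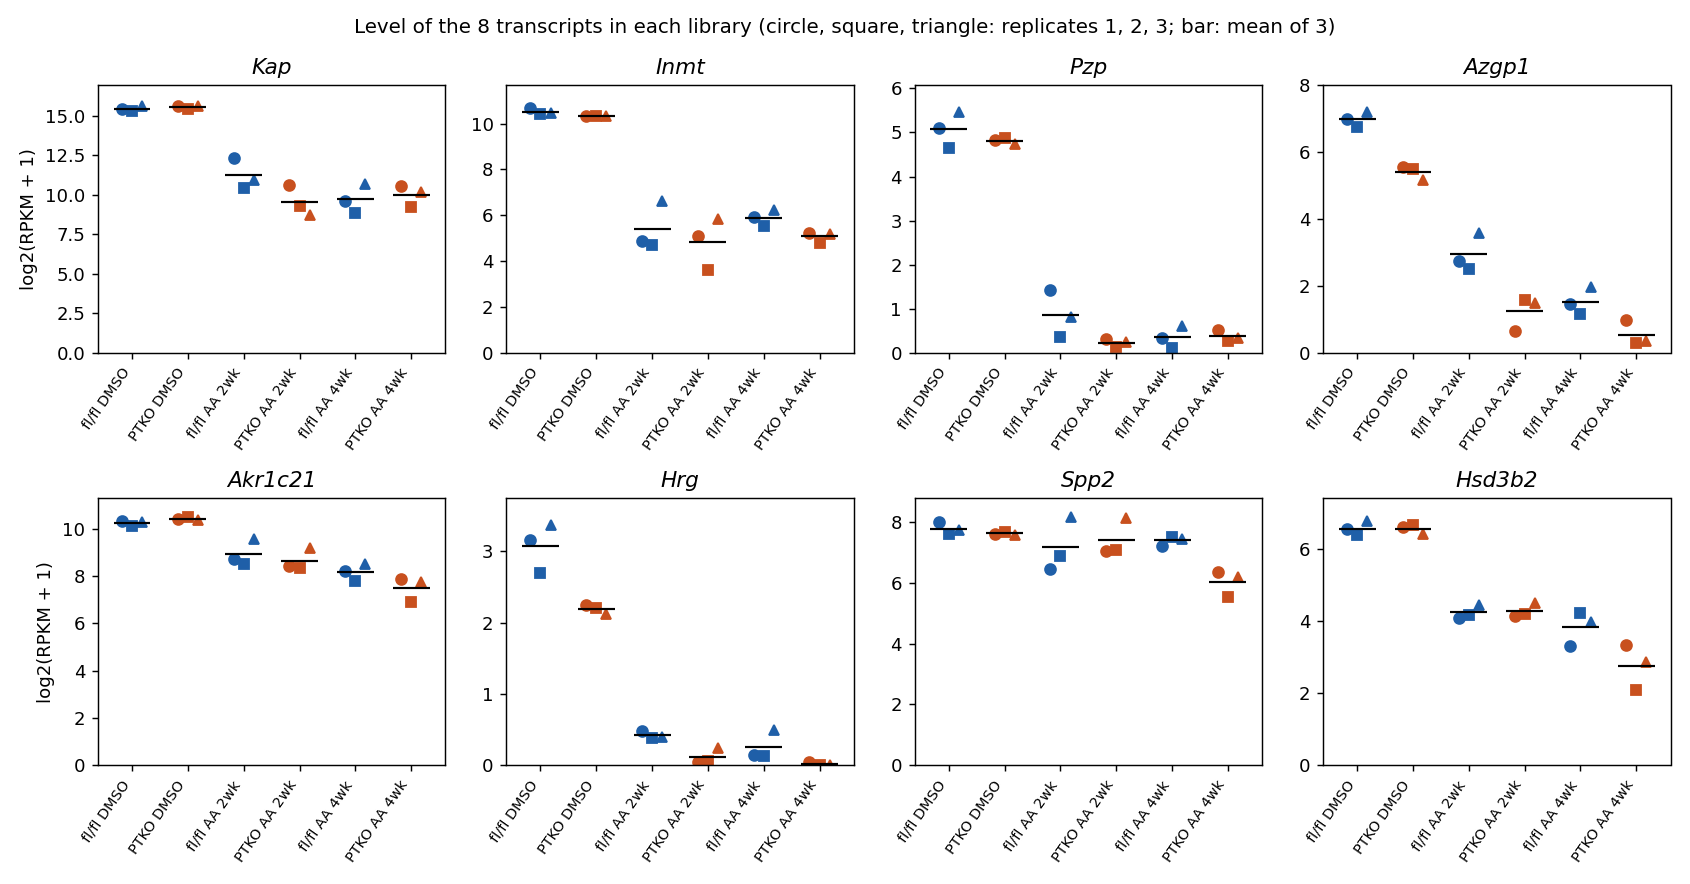
Level of each of the 8 transcripts as log2(RPKM + 1) in every library of the 6 groups, with bars at the mean of 3. Kap, Inmt, Pzp, Azgp1, Akr1c21, Hrg and Hsd3b2 show no overlap between DMSO and AA libraries, whereas the AA 2wk libraries of Spp2 overlap DMSO.

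On the log2(RPKM + 1) scale the fitted toxin differences of the 8 members had medians of -3.35 and -3.23 at AA 2wk in fl/fl and PTKO, and of -3.72 and -4.12 at AA 4wk. Without Hrg the medians were -4.04, -4.18, -4.63 and -4.44. The medians of all tested genes were 0.33, 0.29, 0.35 and 0.40 in the same order. Kap differed by -4.22 ± 0.55 (SE) in fl/fl and -6.05 ± 0.55 in PTKO at AA 2wk. Spp2 was the smallest, at -0.61 ± 0.36 and -0.21 ± 0.36. The DMSO and AA libraries did not overlap for 7 of 8 members at AA 2wk in each genotype and for 8 of 8 at AA 4wk, the AA libraries being the lower. The same was so for 12.3% and 16% of all tested genes at AA 2wk in fl/fl and PTKO, and for 16.6% and 19.9% at AA 4wk. Of all tested genes, limma called 62.6% at AA 2wk in fl/fl (50.4% higher, 12.2% lower) and 60.2% in PTKO (45.9% higher, 14.3% lower). At AA 4wk it called 66.3% in fl/fl (51.9% higher, 14.3% lower) and 72.2% in PTKO (55% higher, 17.3% lower). With median-of-ratios scaling the split at AA 2wk in fl/fl was 3864 genes higher and 3741 lower, and the median of all genes was 0.00. Nothing is read from the members' counts, since these contrasts chose them. For low genes the added 1 RPKM compresses the difference. Pzp at AA 4wk in fl/fl was -4.72 on this scale and -6.57 with 0.1 RPKM added, and Hrg at AA 2wk in fl/fl was -2.65 and -4.09.

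**Figure D3:**
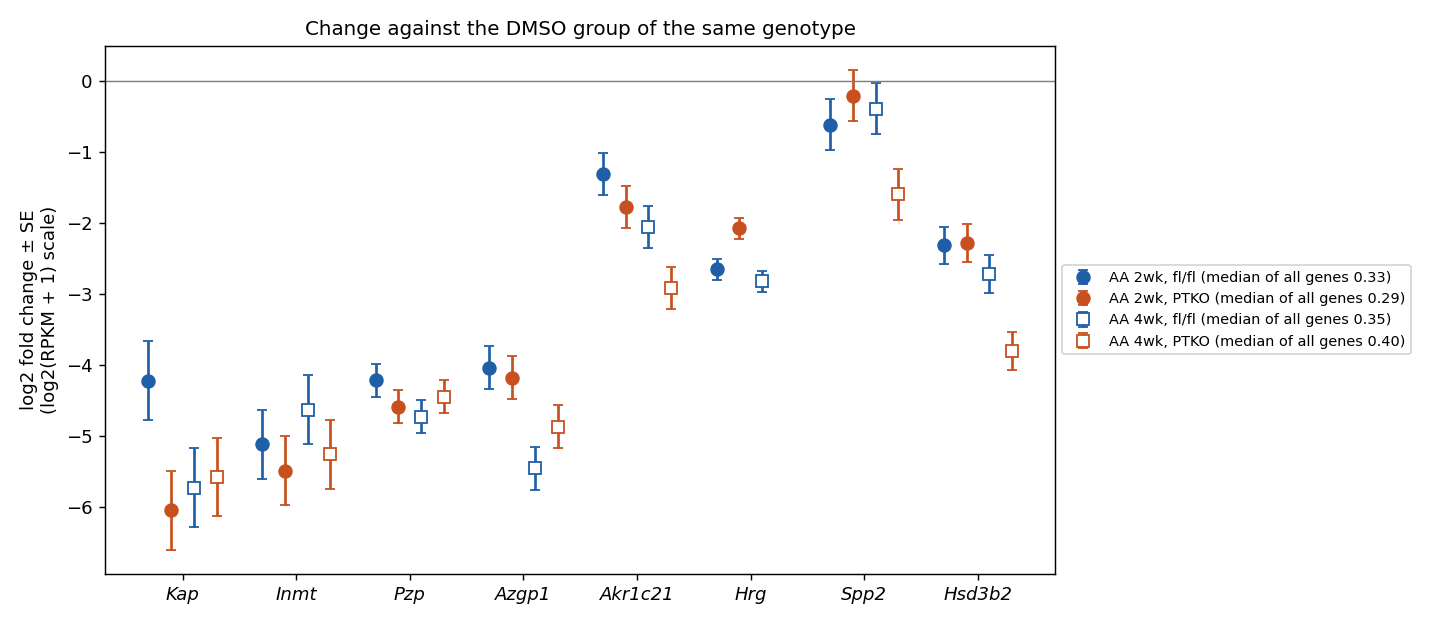
Fitted log2 fold change of each toxin group against DMSO of the same genotype, with SE, on the log2(RPKM + 1) scale. Kap and Inmt lie between -6.05 and -4.22, Akr1c21 and Hsd3b2 are intermediate, the added 1 RPKM pulls the low gene Hrg toward 0 (its PTKO AA 4wk value, on 1 read, is left out), and Spp2 is near 0 except at AA 4wk in PTKO, where it is -1.60.

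Between genotypes, 3 of 8 members lay wholly below fl/fl in PTKO DMSO (Inmt, Azgp1 and Hrg), as did 5.77% of all tested genes. The count was 3 of 8 at AA 2wk (Pzp, Azgp1 and Hrg) and 4 of 8 at AA 4wk (Inmt, Azgp1, Hrg and Spp2), against 4.74% and 9.73% of all tested genes. By limma, a different measure, 0.0367% of all tested genes were called in DMSO (0.022% lower) and 0.00734% at each of AA 2wk and AA 4wk. Azgp1 and Hrg were thus below fl/fl under every treatment, although Hrg rests on 1 to 4 reads per PTKO library at AA 2wk and on 0 or 1 at AA 4wk. These contrasts were part of the choice of genes and are not tested.

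The remodeling interval, AA 4wk against AA 2wk, was not itself named by the rule. It is the difference between toxin contrasts that chose the genes, so its p-values are not independent of that choice. Spp2, for example, stood apart only in PTKO AA 4wk, a group compared here. In the limma fit without quality weights, none of the 8 recovered toward its vehicle level over these 2 weeks by a called rise. In PTKO, 3 of 8 members fell: Hsd3b2 by 1.52 ± 0.26 on the log2 scale (SE, adjusted p = 0.0138), Akr1c21 by 1.15 ± 0.30 (adjusted p = 0.0454) and Spp2 by 1.39 ± 0.36 (adjusted p = 0.0465), from limma with Benjamini-Hochberg adjustment. All 3 PTKO AA 4wk libraries were below all 3 PTKO AA 2wk libraries for each of these genes and for no other member, as they were for 8.52% of all tested genes. In all, 4.16% of tested genes were called in this comparison with 2.6% higher and 1.56% lower. The other 5 members were not called in PTKO, with Azgp1 at -0.69 ± 0.30 (limma, adjusted p = 0.158), Kap at 0.47 ± 0.55 (adjusted p = 0.609), Inmt at 0.23 and Pzp at 0.15. Hrg, at 6 reads against 1, allows no fold.

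These 3 falls depend on single libraries. Without PTKO AA 4wk library 2, the lowest for all 3 genes, the limma values were -1.18 for Hsd3b2, -0.85 for Akr1c21 and -1.14 for Spp2, with adjusted p of 0.0855, 0.211 and 0.211. Without PTKO AA 4wk library 3 the adjusted p were 0.0597, 0.0869 and 0.0980. Without PTKO AA 2wk library 3 they were 0.0476, 0.142 and 0.146, and without both AA 2wk libraries numbered 3 they were 0.0234, 0.0470 and 0.0168. Library 2 is also the one that holds fat cell transcripts: the 5 of 5 fat cell markers in the table summed to 0.134 to 50.0 RPKM in PTKO AA 4wk and to at most 2.50 RPKM in any other group. Proximal tubule S1 and S2 genes averaged -1.83, -2.90 and -2.31 (log2, relative to fl/fl DMSO) in the PTKO AA 4wk libraries 1, 2 and 3, and -1.60 to -1.56 in fl/fl AA 4wk. The part of either in the falls was not tested. Over 28 alternative fits the 3 values were below 0 in each, and Hsd3b2 was called in 25, Akr1c21 in 10 and Spp2 in 10.

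In fl/fl no member was called over the same interval (0 of 8, limma), where 0.125% of all tested genes were called (0.0661% higher, 0.0587% lower). At an unadjusted p under 0.05 the count was 4 of 8 members and 1672 of 13624 genes, and voom on recovered reads also called 0 members. Azgp1 came nearest, at -1.41 ± 0.30 (limma, adjusted p = 0.0904), and its 3 AA 4wk libraries were all below its AA 2wk libraries, as they were for 10.4% of all tested genes. With quality weights per library, 6 of 8 members were called, where 26.2% of all genes were. Inmt and Spp2 were called higher there, and Kap, Pzp, Azgp1 and Akr1c21 lower. Pzp is also among the 4 members at an unadjusted p under 0.05. It passed the filter only through the DMSO groups and rests on 201 reads in fl/fl AA 2wk and 72 in fl/fl AA 4wk. Nothing is read from its calls here. Kap was at -1.51 ± 0.55 (adjusted p = 0.306), Akr1c21 at -0.75 ± 0.30 (adjusted p = 0.336), Spp2 at 0.23 ± 0.36 (adjusted p = 0.816) and Hsd3b2 at -0.40 ± 0.26 (adjusted p = 0.550).

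**Figure D4:**
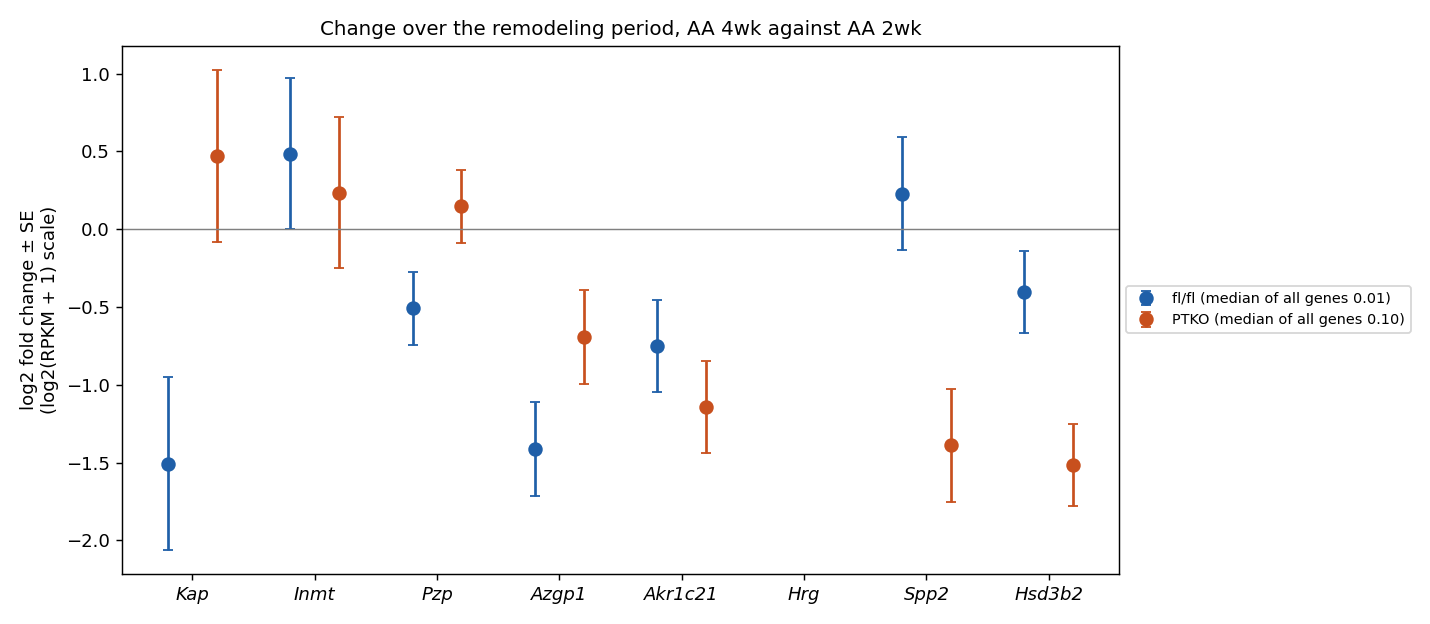
Fitted log2 fold change of AA 4wk against AA 2wk in each genotype, with SE, on the log2(RPKM + 1) scale. In PTKO, Hsd3b2, Spp2 and Akr1c21 are lowest (-1.52, -1.39 and -1.15), and in fl/fl, Kap and Azgp1 are lowest (-1.51 and -1.41), with no member called in fl/fl. Hrg is left out for want of reads.

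Whether genotype altered these responses was tested by interaction terms. These are differences of contrasts that chose the genes, so their p-values and counts are not independent of that choice. The limma fit called 0 of 8 members for the toxin difference at AA 2wk, at AA 4wk or for the remodeling change, with 0.0147%, 0.00734% and 0% of all tested genes called. At an unadjusted p under 0.05 there were 2, 3 and 3 members, against 730, 635 and 442 of all genes, and voom on recovered reads called 0 members in each. Hrg is among the members counted at AA 2wk and AA 4wk, and its value at both turned sign with a smaller pseudocount. The PTKO minus fl/fl difference in the remodeling change was -1.62 ± 0.51 for Spp2, -1.12 ± 0.37 for Hsd3b2 and 1.98 ± 0.78 for Kap (limma, adjusted p = 0.930 for each). For Kap the PTKO minus fl/fl difference in the toxin response at AA 2wk was -1.83 ± 0.78 (limma, adjusted p = 0.913). The falls called in PTKO are therefore not shown to differ from the changes in fl/fl.

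Relatives of the members were read from lists of genes that share a family or a pathway. Among 13 male-biased and androgen-induced kidney genes, 11 fell and 1 rose at AA 4wk in fl/fl, with a median of -3.08 on the log2 scale against 0.35 over all genes. The split was also 11 and 1 at AA 2wk in fl/fl (median -2.80) and at AA 4wk in PTKO (median -3.13), and 11 fell and 2 rose at AA 2wk in PTKO (median -3.03). Slco1a1, an organic anion transporter, went from 113 ± 66.3 to 0.358 RPKM in fl/fl (log2 -6.22 ± 0.31), and Slc7a13, an amino acid transporter of segment S3, from 494 ± 85.3 to 7.82 RPKM (-5.88 ± 0.49). Acsm3, an acyl-CoA synthetase, was at -4.25 ± 0.61, and Cyp4b1, a cytochrome P450, at -4.12 ± 0.44. Gusb, beta-glucuronidase, named because it was the only riser, went from 18.6 to 34.7 RPKM. At AA 2wk its rise was lost with median-of-ratios scaling or quantile normalization. Of 6 female-biased genes, 3 fell (Prlr, Slc22a19 and Cyp4a14) and 1 rose (Abcc3) at AA 4wk in fl/fl. At AA 2wk in fl/fl, 1 was called lower and 2 higher. In fl/fl DMSO (SD) Prlr was at 3.37 ± 3.81, Cyp4a14 at 38.0 ± 21.7 and Slc22a19 at 49.8 ± 9.23 RPKM. For comparison with both lists, 14.3% of all tested genes were called lower and 51.9% higher at AA 4wk in fl/fl. Over all toxin comparisons 12.2 to 17.3% were called lower.

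The steroid enzyme families did not move as one. Of 5 tested Akr1c relatives at AA 4wk in fl/fl, Akr1c14 fell from 104 ± 30.8 to 6.90 RPKM (log2 -3.75 ± 0.44, limma, adjusted p = 6.5e-06). Akr1c12 and Akr1c13 were called higher by 0.57 ± 0.23 and 0.52 ± 0.20, and both calls were lost with median-of-ratios scaling and with quantile normalization, where Akr1c12 turned to -0.16. Akr1c18 and Akr1c19 were not called there. Of 3 tested Hsd3b relatives, Hsd3b3 fell from 84.7 to 23.2 RPKM and Hsd3b4 from 7.51 to 1.28 RPKM, while Hsd3b7, an enzyme of bile acid synthesis, rose from 9.28 to 20.0 RPKM. Of 12 other steroid-converting enzymes, 7 fell and 3 rose, 1 fall (Hsd17b10) being lost with quantile normalization and 1 rise (Hsd11b2) with median-of-ratios scaling. The shares of all tested genes called at AA 4wk in fl/fl were 14.3% lower and 51.9% higher. Hsd17b2, which inactivates sex steroids, fell from 12.4 to 1.18 RPKM, and the steroid 5-alpha-reductase Srd5a2 from 9.20 to 0.817 RPKM.

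Among genes listed beside the plasma-type members at AA 4wk in fl/fl, 2 of 3 cystatins and 3 of 4 MHC class I-like genes rose. So did 2 of 2 in the alpha-2-macroglobulin list, Cd109 of that family and Lrp1, a receptor outside it. Of all tested genes, 51.9% were called higher. At AA 4wk in fl/fl the type 3 cystatins Fetub and Kng1 rose from 1.05 to 3.72 RPKM and from 0.153 to 2.41 RPKM, and Kng2, the most abundant of the 3 tested, was not called (89.3 to 124 RPKM). The rise of Fetub was lost with quantile normalization. In the alpha-2-macroglobulin list, A2m, the closest relative of Pzp there, did not exceed 0.415 RPKM in any library. Cd109 and the receptor Lrp1 rose. The rise of Lrp1 was lost with quantile normalization. Of 4 MHC class I-like genes related to Azgp1, Mr1, Hfe and Cd1d1 rose and the neonatal Fc receptor gene Fcgrt fell (from a mean of 120 to 79.7 RPKM), and the rise of Cd1d1 was lost with quantile normalization. Among 9 methyltransferases beside Inmt, 5 fell and 2 rose, where 14.3% of all tested genes were called lower. Bhmt2, a betaine-homocysteine methyltransferase, fell from 68.4 to 5.66 RPKM and the glycine methyltransferase Gnmt from 27.2 to 4.17 RPKM, and the nicotinamide methyltransferase Nnmt rose from 0.431 to 6.50 RPKM.

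**Figure D5:**
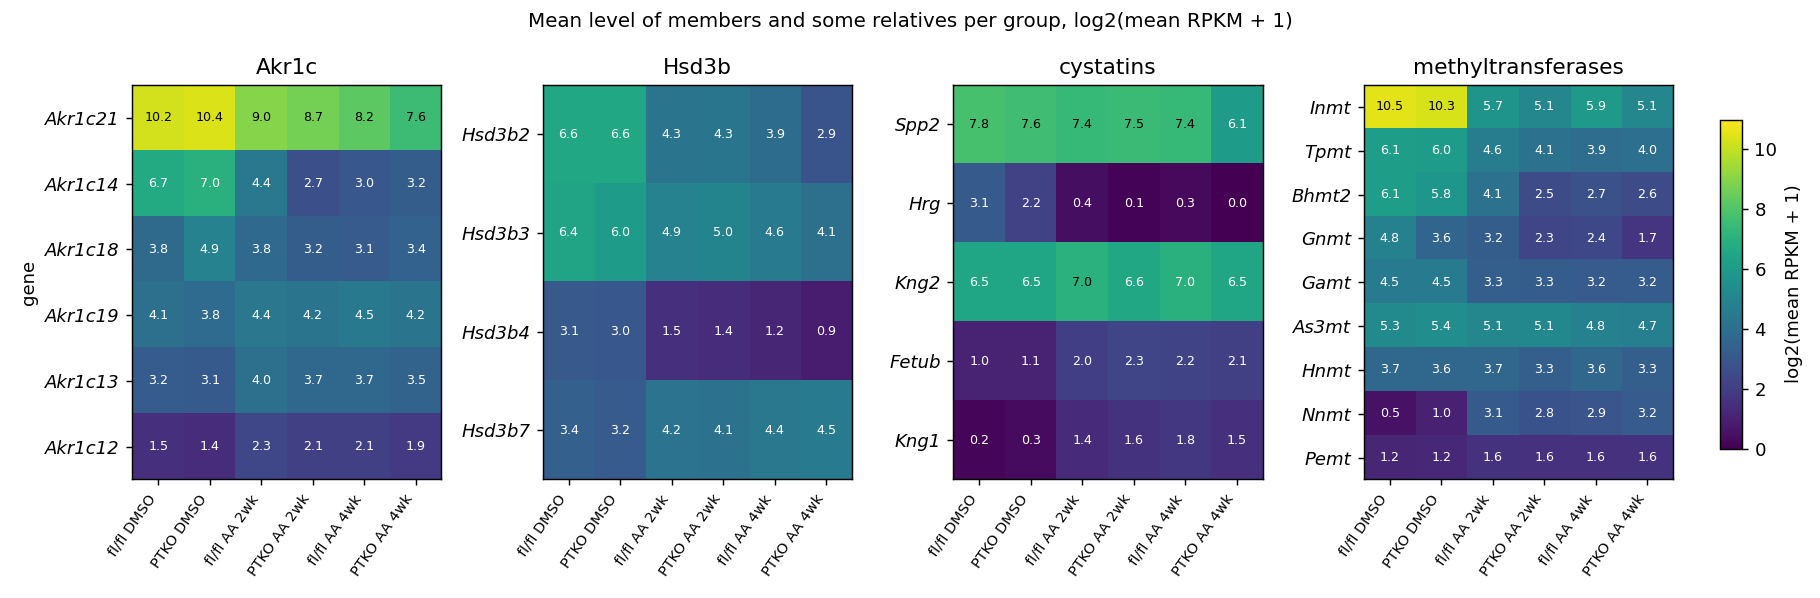
Mean level of members and some of their relatives in the 6 groups as log2(mean RPKM + 1), shown by colour. Akr1c21 and Akr1c14, and Hsd3b2, Hsd3b3 and Hsd3b4, are lower in the AA groups, while Hsd3b7, Kng1 and Nnmt are higher.

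The proximal tubule lists shared the direction of the members. Of 10 genes of proximal tubule segment S3, 10 fell at AA 4wk in fl/fl (median -2.45), and of 12 genes of segments S1 and S2, 8 fell in fl/fl (median -1.49) and 12 fell in PTKO (median -1.90), where the falls of Slc5a12 and Slc5a2 were lost with quantile normalization. Of all tested genes, 14.3% were called lower at AA 4wk in fl/fl and 17.3% in PTKO. Slc7a13, Acsm3, Cyp4b1 and Cyp7b1 are in both the S3 list and the male-biased list. At AA 4wk, 9 of 16 nuclear receptors and tubule transcription factors fell in fl/fl and 4 rose (Cebpb, Cebpa, Stat5a and Nr3c2). Cebpb, a factor of the acute-phase response, went from 4.38 to 17.3 RPKM (log2 1.71 ± 0.24). The rises of Cebpa, Stat5a and Nr3c2 were lost with quantile normalization, and that of Cebpa also with median-of-ratios scaling. Hnf4a, a master regulator of proximal tubule genes, went from 289 to 99.6 RPKM (log2 -1.53 ± 0.17) and the growth hormone receptor Ghr from 232 to 56.2 RPKM (-2.03 ± 0.17). Over the remodeling interval in PTKO, 1 of these 16 fell and 2 rose: Hnf4a fell by a further 0.69 ± 0.17 (limma, adjusted p = 0.0391), and Cebpa and Stat5a rose by 0.84 ± 0.17 and 0.45 ± 0.11 (adjusted p = 0.0207 and 0.0389). Of the 12 S1 and S2 genes 1 fell there, Slc17a3, a phosphate and urate transporter, by 1.07 ± 0.23 (limma, adjusted p = 0.0236). In that comparison 1.56% of all tested genes were called lower and 2.6% higher. How the calls of Hnf4a, Cebpa, Stat5a and Slc17a3 change without single libraries or with other scaling is not given here. All 5 tested macrophage and T cell markers rose with AAI in both genotypes, where 45.9 to 55% of all tested genes were called higher. At AA 4wk in fl/fl, 51.9% of all tested genes were called higher and 14.3% lower. There 3 of 4 thick ascending limb markers and 2 of 6 collecting duct markers rose, and 1 of 3 distal convoluted tubule markers fell. Among glomerular and endothelial markers, 2 of 6 rose and 1 fell. With median-of-ratios scaling the rises of Umod, Kcnj1, Scnn1g, Pecam1 and Cdh5 were lost. No gene of these lists was called for genotype under any treatment or for any interaction. That includes Klf15, the deleted gene, so a lack of calls here does not show a lack of genotype difference.

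Markers of other tissues that make the same proteins were checked. Of 14 liver markers in the table, Mup20 was at 0 in all libraries, and Serpina3k and Cps1 did not exceed 0.0331 and 0.0196 RPKM. Others were present, with Ttr at 6.58 to 142 RPKM, Apoa2 at 2.48 to 9.39 RPKM and Alb at 0.706 to 8.69 RPKM. The list summed to 175 to 211 RPKM in fl/fl DMSO, 217 to 279 in PTKO DMSO, 165 to 258 in fl/fl AA 2wk, 190.0 to 511 in PTKO AA 2wk, 252 to 297 in fl/fl AA 4wk and 196 to 414 in PTKO AA 4wk. Its makeup differed between groups. Of 9 tested liver markers at AA 4wk in fl/fl, 5 fell, among them Serpina1d (73.5 to 7.50 RPKM), and 3 rose, the fibrinogen genes Fgg (7.14 to 166 RPKM), Fga and Fgb. The shares of all tested genes called there were 14.3% lower and 51.9% higher. Of 7 adrenal cortex markers, Cyp11b2 was at 0, and Cyp11a1 and Cyp11b1 did not exceed 0.128 and 0.152 RPKM. Star lay at 0.603 to 1.72 RPKM, and the list summed to at most 1.94 RPKM in any library.

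Across the 18 libraries the members moved together by level and less so within groups. Over their 28 pairs the Pearson correlation of log2(RPKM + 1) was 0.41 to 0.98 (median 0.92), and it mostly follows the difference between DMSO and AA libraries. For deviations from the group means it was -0.27 to 0.83 (median 0.34). Akr1c21 and Spp2 had the highest such value, 0.83, and Kap and Spp2 the lowest, -0.27. Without both AA 2wk libraries numbered 3 the range was -0.20 to 0.81 (median 0.41), and Kap and Inmt went from 0.05 to 0.73. These 2 libraries had the highest level of their group in 10 of 16 pairs of gene and genotype and the lowest in 1, that of Kap in PTKO. The part of the weaker injury signal of these libraries in their higher member levels was not tested.

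Genes outside the members with the profile most like Kap over the 18 libraries were Slc7a13 (Pearson r = 0.993), Gm853 (0.992), Cd36, a fatty acid transporter (0.989), Akr1c14 (0.987) and Fmo5, a flavin monooxygenase (0.987). Cd36 averaged 150.0 RPKM in fl/fl DMSO and 15.5 RPKM in fl/fl AA 4wk. The genes most like the mean standardised profile of all 8 members were Etfdh (0.995), Pet112 (0.994), Nit1 (0.993), Hibadh (0.993) and Cyb5 (0.992). Etfdh passes electrons from fatty acid and amino acid breakdown to the respiratory chain and Hibadh acts in valine breakdown, and both were lower after AAI, Etfdh at 132 and 59.3 RPKM and Hibadh at 363 and 118 RPKM in fl/fl DMSO and AA 4wk. These correlations describe 18 libraries that share the DMSO to AA axis and carry no p.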

How the data were processed

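RNA of kidney cortex from 18 libraries was measured by RNA-seq from total RNA. The deposited values are RPKM, per the file headers, and the submitters' processing notes name bcl2fastq 2.19, kallisto and mm10. No source used here gives the annotation or the way reads were assigned to genes. A step between low values gave whole reads for 17578 of 17579 genes with a value in at least 6 libraries (99.994%, tolerance 0.02 reads), from which depth and reads per member were taken. The gene not recovered, Gpx3, was the most abundant by RPKM in every AA library and second to Kap in every DMSO library. Recovered depth and shares of recovered reads therefore leave it out. Genes at 1 RPKM or more in 3 or more libraries were fitted as log2(RPKM + 1) in 1 limma model with 6 group means, an intensity trend and robust moderation (limma 3.58.1, statmod 1.5.0, R 4.3.3), with Benjamini-Hochberg adjustment over 13624 genes, two-sided, at 0.05. Some results are not reported here. The fit was tested on simulated data. An exact permutation test of 3 against 3 libraries cannot go below 0.1. Alternatives changed the pseudocount, filter, scaling, weights, replicate block, groups fitted and libraries kept, or used voom on recovered reads. The members and lists were chosen with earlier results of these data known. All 8 members are named, and from each list up to 4 called genes with the largest AA 4wk change in fl/fl, or each gene of lists of 6 or fewer.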

Additional observations from a re-analysis of the deposited data

How the results depend on the processing

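Quality weights per library, whose estimate stopped before full convergence, called 6 members rather than 0 for remodeling in fl/fl and 2 rather than 0 for the genotype by remodeling interaction (Spp2 at -1.995, adjusted p = 0.0195, and Pzp, on 37 to 201 reads per AA group, at 1.11, adjusted p = 0.0479). In the first they called Inmt and Spp2 higher and the other called members lower, and they called 26.2% of all genes. The 3 members called for remodeling in PTKO were 1 with a pseudocount of 0.1, without the filter and with median-of-ratios scaling, and 0 with only the groups compared. Leaving out single libraries gave 0 to 3 in PTKO (0 without PTKO AA 4wk library 2 or 3) and 0 to 1 in fl/fl. Relatives called higher at AA 2wk, 21 in fl/fl and 20 in PTKO, were 12 and 11 with median-of-ratios scaling and 11 and 10 with quantile normalization. Median-of-ratios scaling moved the median of all genes at AA 2wk in fl/fl from 0.33 to 0.00 and the split of higher and lower calls from 6864 and 1660 to 3864 and 3741.

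Uncalled values that turned sign were, in PTKO remodeling, Kap at -0.31 (quality weights) and Pzp at -0.027 (quantile normalization). Among genotype by toxin interactions at AA 2wk they were Hrg at -0.30 (pseudocount 0.1) and -1.10 (voom) and Azgp1 at 0.07 (without both libraries numbered 3). At AA 4wk they were Azgp1 at -0.35 and -0.48 and Hrg at -0.28 and -1.53 (pseudocount 0.1 and voom), and in remodeling Hrg at -0.42 (voom). With 1 library left out, Spp2 remodeling in fl/fl ranged from -0.13 to 0.73 and Inmt in PTKO from -0.38 to 0.73. The genotype by toxin interactions at AA 2wk ranged from -0.87 to 0.24 for Inmt, -0.36 to 0.19 for Azgp1 and -0.075 to 0.14 for Hsd3b2. The interaction for Kap at AA 4wk ranged from -0.27 to 0.64, and that for Inmt in remodeling from -0.86 to 0.24. The cause was not tested in any of these. No called value turned sign.

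The labels tie same-numbered libraries by nothing but the number. Their deviations correlated at -0.16 to 0.66 (median 0.10, over 0.1 in 23 of 45 pairs). For different numbers the median was -0.02, with 18 of 90 pairs over 0.1, so same-numbered libraries were somewhat more alike. Between genotypes at AA 2wk, libraries numbered 1, 2 and 3 correlated with their namesakes at 0.44, 0.43 and 0.66, and different numbers at -0.68 to 0.53. A shared batch or pairing was not tested, and the main fit took the libraries as unpaired. With the replicate number as a block, 3 members were called for PTKO remodeling and 0 in fl/fl, but 1570 rather than 567 genes in PTKO and 40 rather than 17 in fl/fl. Hrg at 0 to 13 reads per AA library allows no fold between AA groups.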
